A study of Mus musculus with 11 samples.

Results

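Chemokines are small secreted proteins that guide white blood cells along a gradient. Here 10 mouse chemokine genes were followed in libraries labelled as intestinal macrophages: Cxcl1, Cxcl2, Cxcl16, Ccl2, Ccl3, Ccl4, Ccl6, Ccl7, Ccl8 and Ccl9. They were taken by gene symbol from the 23282 entries of each count file, each symbol had 1 entry, and all 10 were among the 6987 genes that passed the filter on low counts. The 11 RNA libraries came from colonic cells with the label CD45+CD11b+Ly6G-Ly6C-MHCII+CD64+, a marker pattern of macrophages. The strain label was WT or Csf1r-EP4-/- (called KO below), EP4 being a receptor for prostaglandin E2 encoded by Ptger4. The labels name no alleles, no Cre driver, no ages, and no animals or pools behind a library. All groups carry the same treatment text, 2.5% dextran sodium sulphate (DSS, which injures the colon lining) in the drinking water for 5 days, and the titles give day 0 or day 39. There were 3 KO and 2 WT libraries of day 0, and 3 of each label at day 39. Nothing states that the libraries of a group came from separate mice, so p-values measure the spread between these libraries, which may be technical.

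In a chemokine of the CXC class the first conserved cysteines are separated by a residue, and in the CC class they are adjacent. Cxcl1 and Cxcl2 attract neutrophils through the receptor Cxcr2. Ccl2 and Ccl7 draw monocytes out of the blood through Ccr2, and Ccl3 and Ccl4 attract monocytes and T cells. Macrophages transcribe many of these genes on contact with bacteria or damaged tissue, in part through the transcription factor NF-kB, and in the gut this supply of monocytes and neutrophils is a known feature of colitis.

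Cxcl1 and Cxcl2 are neighbouring genes on mouse chromosome 5, and their promoters are shown because these genes behaved differently across the libraries. The sequences run from 250 bases before to 50 bases after the transcription start on the plus strand (RefSeq, GRCm38.p6), and capitals mark matches to the NF-kB consensus on either strand.
Cxcl1 promoter, chr5:90890995-90891294: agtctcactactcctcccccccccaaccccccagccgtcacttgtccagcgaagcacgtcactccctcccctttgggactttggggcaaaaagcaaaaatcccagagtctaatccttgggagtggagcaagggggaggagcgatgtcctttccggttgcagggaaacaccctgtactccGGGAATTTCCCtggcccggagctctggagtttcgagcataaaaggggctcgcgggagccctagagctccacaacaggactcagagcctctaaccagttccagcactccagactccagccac
Cxcl2 promoter, chr5:90903649-90903948: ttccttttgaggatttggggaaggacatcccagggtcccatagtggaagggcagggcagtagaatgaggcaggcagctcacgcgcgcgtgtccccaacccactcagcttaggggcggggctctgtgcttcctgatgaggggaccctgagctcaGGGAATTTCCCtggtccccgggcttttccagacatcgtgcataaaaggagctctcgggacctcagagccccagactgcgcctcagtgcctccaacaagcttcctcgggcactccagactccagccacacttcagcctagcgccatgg
Each promoter held the letters GGGAATTTCC, beginning 71 bases before the start of Cxcl1 and 97 bases before that of Cxcl2, and an overlapping match on the other strand shifted by a single base. The consensus matched 2779 of 32851 RefSeq promoters of this length (8.46%), and those exact letters were in 29 of them (0.0883%). Of the 6 members with a promoter in the table, Ccl9 also held a match, on the other strand and beginning 35 bases before its start, and the windows of Ccl3, Ccl6 and Ccl8 held none. Among 70 promoters of the other chemokine, receptor and regulator genes considered below, 18 (25.7%) matched the consensus, and 3 held the exact letters, those of Cxcl3, Ccr3 and Nfkbia. The longest run of bases shared exactly by the Cxcl1 and Cxcl2 promoters was 20, outside the motif. A match describes the letters and is not evidence of binding.

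Library totals ranged from 4003299 to 14207919 counts, the 3 day 0 KO libraries being the deepest. The floor of detection was set at 3 counts in a library, equal to between 0.196 and 0.911 CPM, counts scaled to 1000000 per library. CPM here uses library totals adjusted by the trimmed mean of M-values (TMM), and floors cover counting error only. Ptger4, the targeted gene, had 1350, 0 and 890 counts in day 0 KO, 0 and 0 in day 0 WT, 1, 8 and 4501 in day 39 KO and 1481, 152 and 7286 in day 39 WT. It therefore went against the label in replicates 1 and 3 of day 0 KO and in replicate 3 of day 39 KO, and both day 0 WT libraries had none. The labels do not give the deleted part, and reads of the 3′ end outside it would check nothing, so all directions between genotypes refer to the labels. Between 9 and 11 of 12 macrophage markers were above the floor in each library, including H2-Ab1, Cd74, Csf1r and C1qa in all 11, while Mertk was at 0 throughout and Fcgr1, the gene of the sorted CD64, was above the floor in 6.

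The 10 genes together took between 0.107% and 0.75% of the counts of a library, both extremes being day 0 KO libraries. Of their 110 values, 93 were above the floor and 17 (15.5%) were at or under it, 7 of them at 0. Over all tested genes 55.3% of values were at or under the floor. Cxcl2, Ccl4 and Ccl6 were above the floor in all 11 libraries, which was true of 6.6% of tested genes. At the other end, Cxcl1 was above it in 6 libraries, Ccl7 in 7 and Ccl2 in 8. In 27 cases a gene reached at least 1000 counts in a group. In 6 of these (22.2%) another library of that group was at or under the floor, against 62.1% of such cases over all tested genes. The shares over all tested genes were not matched for level. Mean levels of the members over the libraries ran from 61.7 CPM for Ccl7 to 1840 CPM for Cxcl2.

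**Figure D1:**
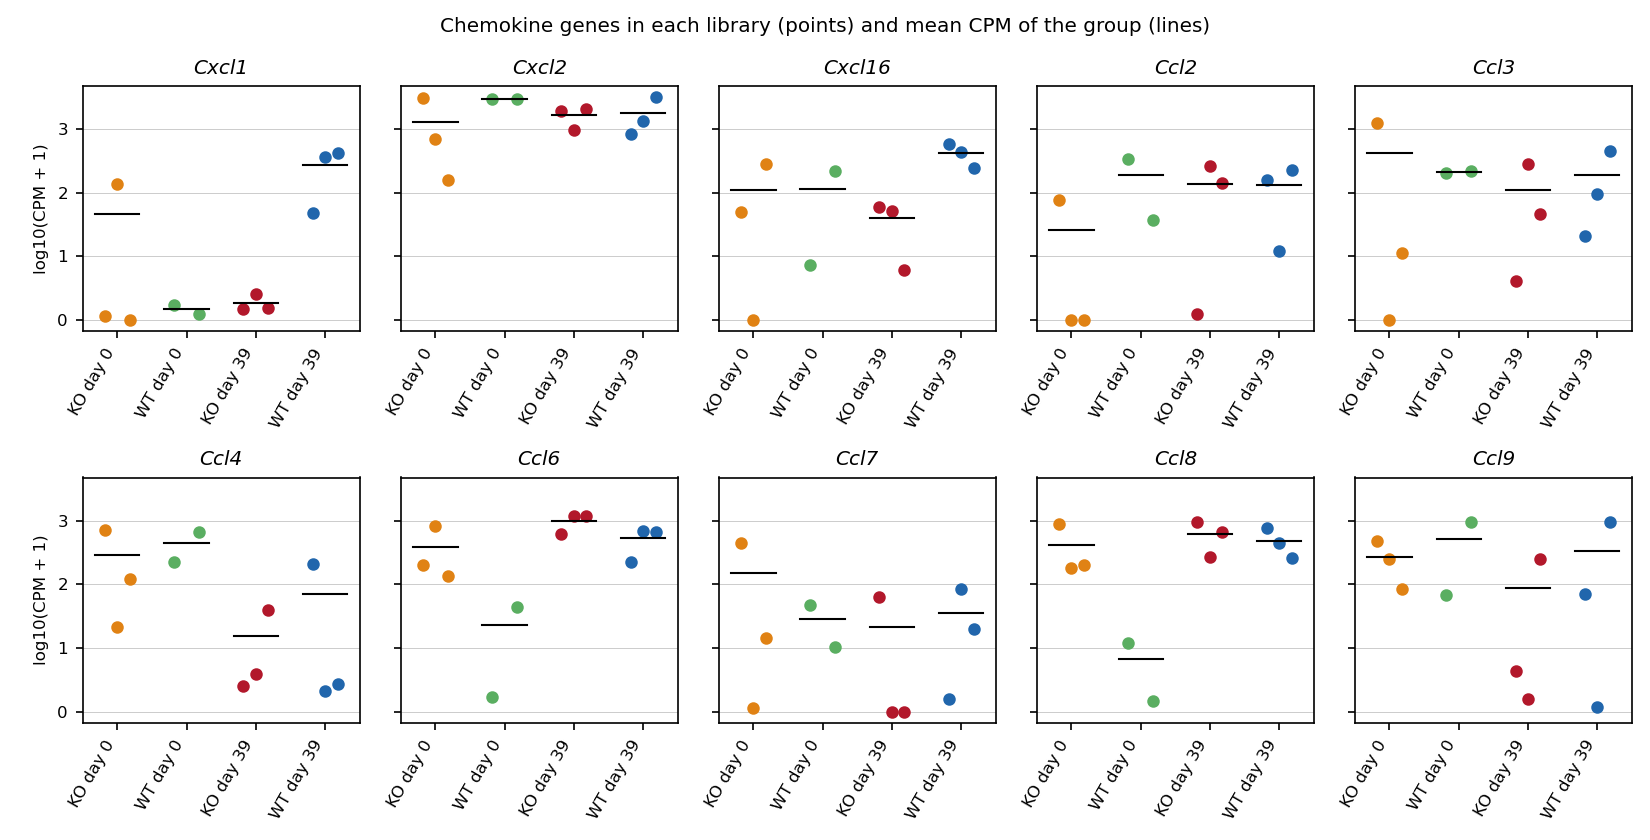
Level of each chemokine gene in the 11 libraries, as log10(CPM + 1), with 1 point per library and a line at the mean CPM of each group. Cxcl2 lies between 157 and 3190 CPM in every library, Cxcl1 is at 46.7 to 420 CPM in day 39 WT and at 0.517 to 1.58 CPM in day 39 KO, and Ccl8 is at 10.9 CPM or less in both day 0 WT libraries.

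Cxcl1, also known as KC, is the neutrophil attractant with the sharpest pattern. It had 154, 1987 and 1916 counts in day 39 WT and 2, 8 and 2 counts in day 39 KO. The other libraries had 1, 1073 and 0 counts in day 0 KO and 4 and 1 in day 0 WT. Thus all 3 day 39 WT libraries were high, all 3 day 39 KO libraries and both day 0 WT libraries were near the floor, and 1 of 3 day 0 KO libraries was high. The level was 277 CPM ± 201 (SD, n = 3) in day 39 WT, 46.0 CPM ± 79.6 (n = 3) in day 0 KO, 0.891 CPM ± 0.598 (n = 3) in day 39 KO and 0.475 CPM ± 0.339 (n = 2) in day 0 WT. Neighbours in this order overlapped in every case. In a bulk library fewer cells of a type and less RNA per cell cannot be told apart.

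Cxcl2, the neighbouring neutrophil attractant also known as MIP-2, did not share this pattern. Its counts were 19320, 5408 and 2405 in day 0 KO and 16741 and 12512 in day 0 WT. At day 39 they were 7494, 4906 and 7112 in KO and 2757, 7269 and 14544 in WT. Every library thus had at least 2405 Cxcl2 counts, and at day 39 the KO values lay within the range of the WT values in CPM. The means were 2970 CPM ± 30.2 (SD, n = 2) in day 0 WT, 1790 CPM ± 1240 (n = 3) in day 39 WT, 1650 CPM ± 594 (n = 3) in day 39 KO and 1320 CPM ± 1570 (n = 3) in day 0 KO, all neighbours overlapping. The small SD of day 0 WT depended on the scaling: by library totals without TMM it was 3160 CPM ± 1010 (SD, n = 2). The Cxcl2 transcripts share 126 stretches of 50 bases with those of Cxcl3, so reads could be split between them or counted for the wrong gene. Cxcl3 had at most 352 counts in a library, and how its reads were assigned was not tested.

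Counts of Cxcl1 per 1000 counts of Cxcl2 do not depend on the scaling between libraries. They were 55.9, 273 and 132 in day 39 WT and 0.267, 1.63 and 0.281 in day 39 KO. In day 0 KO they were 0.0518, 198 and 0, and in day 0 WT they were 0.239 and 0.0799. The day 39 groups did not overlap, with means of 154 ± 110 (SD, n = 3) for WT and 0.726 ± 0.783 (n = 3) for KO. In WT, day 39 lay above day 0 in every library. The ratio was formed with the values of both genes known, and with these numbers of libraries a two-sided exact permutation test cannot give a p under 0.1, so it is a description.

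**Figure D2:**
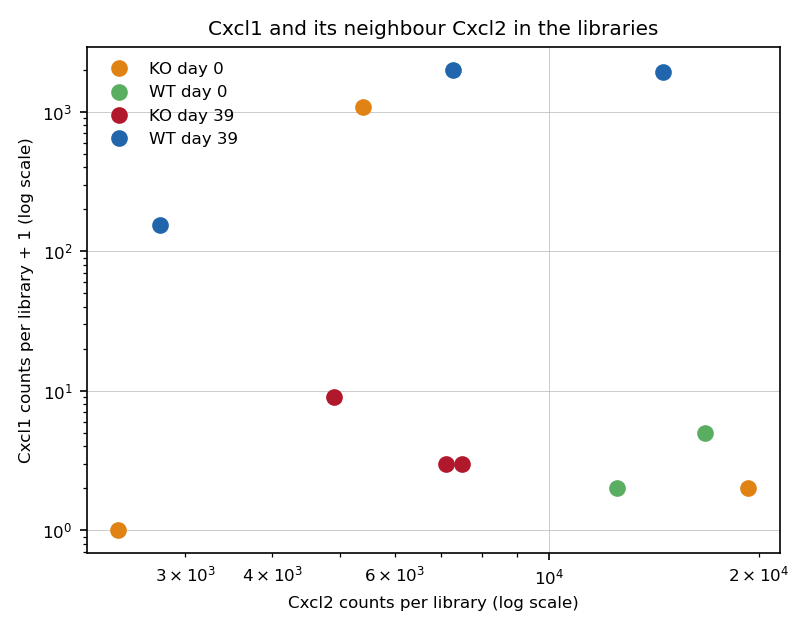
Counts of Cxcl1 plus 1 against counts of Cxcl2 on log axes, 1 point per library, coloured by group. The libraries spread over 2405 to 19320 Cxcl2 counts, while Cxcl1 is at 154 or more in the 3 day 39 WT libraries and in 1 day 0 KO library, and at 8 or fewer in the other 7.

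Cxcl16 is a membrane-bound chemokine that is shed from the surface, attracts T cells carrying Cxcr6 and also acts as a scavenger receptor. It had 1937, 2351 and 1134 counts in day 39 WT and 232, 257 and 18 in day 39 KO. Day 0 libraries had 300, 0 and 4271 counts in KO and 35 and 948 in WT. Day 39 WT was at 423 CPM ± 170 (SD, n = 3), above every library of day 39 KO (38.7 CPM ± 29.4, n = 3) and of day 0 WT (115 CPM ± 154, n = 2), but not above all of day 0 KO (109 CPM ± 149, n = 3). Cxcl16 overlaps Zmynd15 on the other strand. Zmynd15 had 2, 0 and 4423 counts in day 0 KO and 495 and 493 in day 0 WT. At day 39 it had 0, 0 and 41 counts in KO and 0, 531 and 229 in WT. Its highest value was thus in replicate 3 of day 0 KO, the library with 4271 Cxcl16 counts. The strand setting of the counting is not given in the sources used here, so the 2 genes may share reads.

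Ccl8, a chemokine of the monocyte chemoattractant group, was low only in day 0 WT. It had 61 and 2 counts there, against 5491, 1396 and 3018 in day 0 KO, 3650, 1340 and 2347 in day 39 KO and 2490, 2446 and 1172 in day 39 WT. The means were 5.68 CPM ± 7.37 (SD, n = 2) in day 0 WT and 420 CPM ± 401 (n = 3), 628 CPM ± 342 (n = 3) and 487 CPM ± 252 (n = 3) in the other groups, in that order. No library of the other 3 groups fell as low as those of day 0 WT, and those 3 groups overlapped one another.

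Ccl6, a macrophage chemokine that binds Ccr1, had the same kind of pattern. Its counts were 4 and 184 in day 0 WT, 1246, 6397 and 2076 in day 0 KO, 2374, 5995 and 4147 in day 39 KO, and 742, 3742 and 3054 in day 39 WT. Day 0 WT averaged 22.0 CPM ± 30.2 (SD, n = 2) and did not overlap day 0 KO (386 CPM ± 379, n = 3), which overlapped day 39 WT (527 CPM ± 262, n = 3). Day 39 KO had the highest mean, 998 CPM ± 333 (n = 3), and overlapped day 39 WT. With 2 libraries in the low group, the Ccl8 and Ccl6 patterns rest on those libraries.

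The monocyte attractants Ccl2 and Ccl7 varied within every group. Ccl2 had 470, 0 and 0 counts in day 0 KO, 1918 and 154 in day 0 WT, 1, 1335 and 487 in day 39 KO and 521, 62 and 1030 in day 39 WT. Ccl7 had 2764, 1 and 208 counts in day 0 KO, 258 and 40 in day 0 WT, 239, 0 and 0 in day 39 KO and 2, 460 and 85 in day 39 WT. No pair of groups next to each other in mean level was free of overlap for either gene. Ccl2, Ccl7 and Ccl8 belong to the same gene cluster on chromosome 11, and Ccl7 follows Ccl2 there. Ccl2 also overlaps Gm17268 on the other strand in GENCODE M21.

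Ccl3 and Ccl4, also called MIP-1 alpha and MIP-1 beta, are adjacent on chromosome 11. Ccl3 had 7808, 0 and 160 counts in day 0 KO, 1125 and 938 in day 0 WT, 12, 1432 and 157 in day 39 KO and 67, 520 and 2101 in day 39 WT, so every group of 3 held both a high and a low library. Ccl4 had 4486, 161 and 1833 counts in day 0 KO and 1249 and 2826 in day 0 WT. At day 39 it had 6, 15 and 133 counts in KO and 674, 6 and 8 in WT. In WT the day 39 libraries were all below the day 0 libraries, at 69.2 CPM ± 117 (SD, n = 3) against 445 CPM ± 313 (n = 2). In KO the means were 14.3 CPM ± 20.8 (n = 3) at day 39 and 287 CPM ± 379 (n = 3) at day 0, with overlap. RefSeq models of Ccl3 and Ccl4 overlap on opposite strands, so their counts are uncertain.

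Ccl9, a macrophage chemokine that like Ccl6 binds Ccr1, had 2974, 1967 and 1274 counts in day 0 KO and 374 and 4053 in day 0 WT. At day 39 it had 13, 3 and 878 counts in KO and 230, 1 and 4277 in WT. All 5 day 0 libraries thus held at least 374 counts, the highest at 955 CPM, while day 39 libraries ranged from 0.184 to 937 CPM. Transcripts of 250 other genes share stretches of 50 bases with Ccl9, so its count may include reads of other genes. No such stretch was shared by the members other than Ccl9 and Cxcl2.

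The genotype comparison at day 39 sets the libraries labelled Csf1r-EP4-/- against those labelled WT. edgeR's quasi-likelihood test called 0 of 10 members at an adjusted p under 0.05, the share of all tested genes called being 0.0286%, and 0 of 10 had an unadjusted p under 0.05 (7.28% of tested genes). The members had a median log2 fold change of -0.77, with 3 higher and 7 lower in KO, against a median of 0.0 over all tested genes. The fitted value of Cxcl1 was -8.24 ± 4.9 (log2 fold change of KO over WT, SE; edgeR adjusted p = 0.491). On the same scale Cxcl16 had -3.45 ± 3.24 (edgeR adjusted p = 0.704) and Cxcl2 had -0.11 ± 0.89 (edgeR adjusted p = 1.0). Cxcl1 and Cxcl16 were the members whose day 39 groups did not overlap, 2 of 10 lower in KO, where 3.99% of tested genes were, and 0 members were higher without overlap, as 3.41% of tested genes were. DESeq2, run as an alternative, called 1 member, Cxcl1 (log2 fold change -8.30 ± 2.64 SE, DESeq2 adjusted p = 0.0261), and 10.6% of the genes it tested. The adjusted p of Cxcl1 lay between 0.443 and 1.0 in 7 other edgeR settings and between 0.46 and 0.691 when a library was left out. With any library left out, including replicate 3 of the KO libraries, the log2 fold change lay between -8.93 and -7.82 for Cxcl1 and between -3.88 and -2.94 for Cxcl16.

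Cxcl1 is also made by epithelial cells, fibroblasts and other stromal cells, which the sort on CD45 should lack. Marker lists of other cells are therefore given beside it. Summed epithelial markers ranged from 3840 to 9100 CPM in day 39 KO and from 1570 to 6480 CPM in day 39 WT, with 10 to 11 and 6 to 11 of 12 markers above the floor. Cdh1 was above it in all 11 libraries and Krt18, Vil1 and Lgals4 in 3 each. Summed fibroblast markers ranged from 5680 to 11100 CPM in day 39 KO and from 5550 to 10300 CPM in day 39 WT, with 6 to 8 and 5 to 7 of 9 above the floor. Neutrophil markers summed to between 1.58 and 236 CPM in day 39 KO and between 1.82 and 307 CPM in day 39 WT, with at most 2 of the 10 listed above the floor and Mpo, Elane, Camp and Ngp at 0 in all libraries. Endothelial markers summed to between 0 and 1.03 CPM in day 39 KO and between 0.219 and 253 CPM in day 39 WT. Mast cell and basophil markers summed to at most 187 CPM and 0.304 CPM, T and NK cell markers to at most 1.81 CPM and 321 CPM, and B and plasma cell markers to at most 34.3 CPM and 52.8 CPM, in day 39 KO and WT. Skeletal muscle markers summed to 3960, 3060 and 3010 CPM in day 39 KO and to 4320, 14200 and 6100 CPM in day 39 WT, so they separated these groups in the same direction as Cxcl1 and Cxcl16. The part of these cells in the Cxcl1 and Cxcl16 values was not tested.

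**Figure D3:**
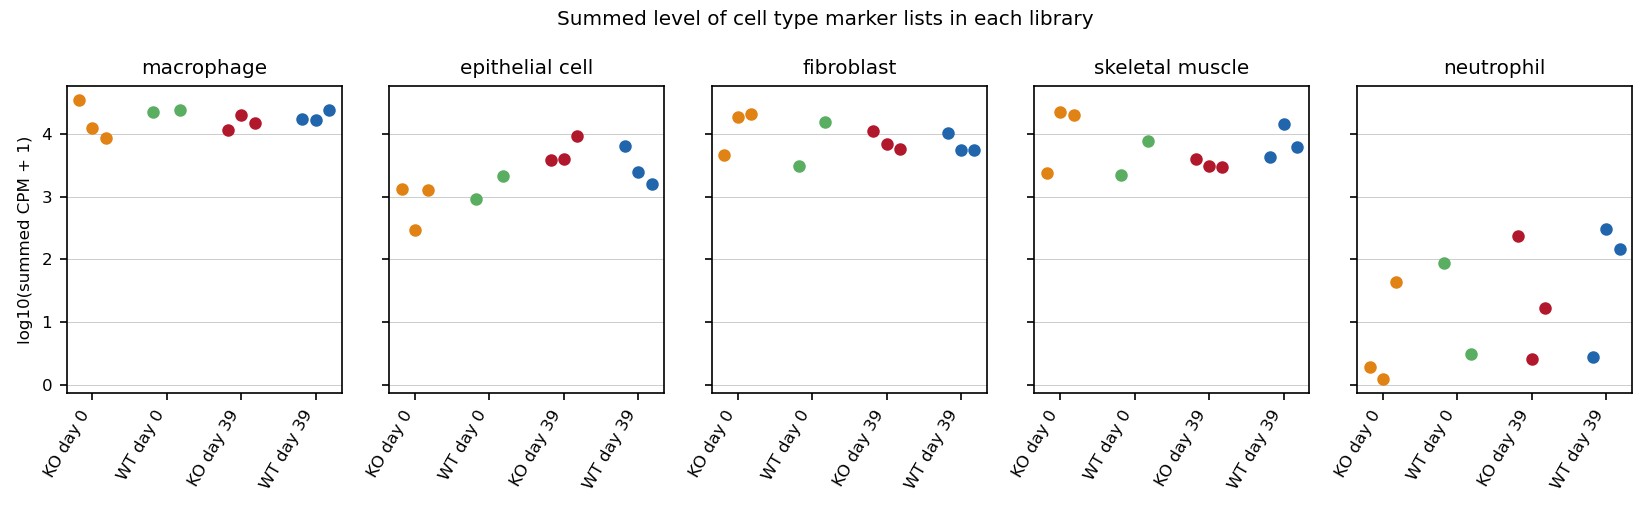
Summed CPM of marker lists of 5 cell types in each library, as log10(summed CPM + 1), 1 point per library. Macrophage markers sum to between 8560 and 34600 CPM, epithelial markers are at 1570 CPM or more in the day 39 libraries and at 2140 CPM or less at day 0, and neutrophil markers stay at 307 CPM or less.

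At day 0, edgeR called 0 of 10 members (0.0143% of tested genes), and 1 member had an unadjusted p under 0.05 (7.99% of tested genes). The median log2 fold change was 0.46 over the members, 5 higher and 5 lower in KO, and 1.08 over all tested genes. The latter was 0.0 under upper-quartile scaling, 0.19, 0.27 and 0.0 without replicate 1, 2 or 3 of day 0 KO, and 3.28 and 2.09 without replicate 1 or 2 of day 0 WT. Ccl8 had a fitted log2 fold of 6.20 ± 2.84 (SE, edgeR adjusted p = 0.381), or 5.12 relative to the median of all genes. Ccl6 had 4.13 ± 2.24 (log2, SE; edgeR adjusted p = 0.381), or 3.05 relative to that median. These 2 of 10 members did not overlap between the groups, and 6.73% of tested genes were higher in KO without overlap, while 0 members and 5.25% of tested genes were lower. Of the members DESeq2 called Ccl8 alone (log2 fold change 5.87 ± 2.25 SE, DESeq2 adjusted p = 0.034) and 31.1% of its genes. In edgeR the adjusted p of Ccl8 was between 0.379 and 0.804 in 7 other settings and between 0.361 and 0.725 when a library was left out. Its log2 fold change then lay between 5.04 and 9.61, and that of Ccl6 between 2.95 and 9.15, the highest values being those without replicate 1 of day 0 WT for Ccl8 and without replicate 2 for Ccl6. Under upper-quartile scaling Ccl6 was at 1.64. The Cxcl1 value at day 0, 6.53 ± 5.46 (log2, SE; edgeR adjusted p = 0.512), came from replicate 2 of day 0 KO and was -2.48 without it. Skeletal muscle markers, which the sort should lack, summed to between 2380 and 22600 CPM in day 0 KO and between 2180 and 7590 CPM in day 0 WT, with 7 or 8 of 8 above the floor. Mast cell and basophil markers summed to at most 399 CPM in the KO libraries and 0.471 CPM in the WT libraries of that day, T and NK cell markers to at most 313 and 416 CPM, B and plasma cell markers to at most 0.482 and 210 CPM, and endothelial markers to at most 167 and 0.236 CPM. Fibroblast markers summed to 4600, 18800 and 21000 CPM in day 0 KO and to 3030 and 15200 CPM in day 0 WT. Macrophage markers summed to 34600, 12400 and 8560 CPM in day 0 KO and to 22500 and 23600 CPM in day 0 WT. In replicates 2 and 3 of day 0 KO, fibroblast and skeletal muscle markers each summed to more than macrophage markers. The part of any of these cells was not tested.

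The comparison of day 39 with day 0 asks how these cells change over the course. In WT, edgeR called 0 of 10 members (0.0143% of tested genes) and 2 had an unadjusted p under 0.05 (6.68% of tested genes), namely Ccl8 and Ccl6. Ccl8 had 6.41 ± 2.87 (log2 fold of day 39 over day 0, SE; edgeR adjusted p = 0.414), which was 4.77 above the median of all tested genes. Ccl6 had 4.58 ± 2.3 (log2, SE; edgeR adjusted p = 0.414), or 2.94 above that median. Cxcl1 had a fitted log2 fold of 9.12 ± 6.14 (SE, edgeR adjusted p = 0.426), or 7.48 above the median. Cxcl16 had 1.88 ± 3.53 (log2, SE; edgeR adjusted p = 0.843), turning to -0.47 under upper-quartile scaling. Ccl4 was at -2.68 ± 3.28 (log2, SE; edgeR adjusted p = 0.700). Single libraries moved these log2 values: without replicate 1 of day 0 WT, Ccl8 was at 9.76 and Cxcl16 at 0.72, and without replicate 2 Ccl6 was at 9.55, Cxcl16 at 6.14 and Ccl4 at -1.61. Without replicate 1 of day 39 WT, Ccl4 was at -8.24. Upper-quartile scaling gave 2.31 for Ccl6 and -5.04 for Ccl4, and the replicate block gave -6.50 for Ccl4.

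In WT 4 members were higher at day 39 without overlap, Cxcl1, Cxcl16, Ccl6 and Ccl8, as were 12.7% of tested genes, and 1 member, Ccl4, was lower without overlap, as were 4.72%. The median log2 fold change was 0.09 over the members and 1.64 over all tested genes. The latter was 3.89 and 3.37 without replicate 1 or 2 of day 0 WT and 0.03 and 0.85 without replicate 1 or 2 of day 39 WT, so values relative to it move with single libraries. DESeq2 called 2 members, Ccl8 (DESeq2 adjusted p = 0.0304) and Cxcl1 (DESeq2 adjusted p = 0.0161), and 27.8% of its genes. Their edgeR adjusted p lay between 0.391 and 0.774 for Ccl8 and between 0.4 and 0.774 for Cxcl1 over the other settings and left-out libraries. The comparison shares the day 39 WT libraries with the day 39 genotype comparison and the day 0 WT libraries with the day 0 one, so the Cxcl1, Ccl8 and Ccl6 values of these comparisons are not independent. Epithelial markers summed to between 919 and 2140 CPM in day 0 WT and between 1570 and 6480 CPM in day 39 WT. Endothelial markers summed to 0 and 0.236 CPM at day 0 and to 78.6, 253 and 0.219 CPM at day 39, and skeletal muscle markers to 2180 and 7590 CPM and to 4320, 14200 and 6100 CPM. The part of these cells was not tested.

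In KO, edgeR called 0 of 10 members (0.157% of tested genes), 0 had an unadjusted p under 0.05 (18.2% of tested genes), and DESeq2 called 0 (25.9% of its genes). The median log2 fold change was -1.58 over the members, 4 higher and 6 lower, and 0.0 over all tested genes. Ccl4 was at -4.33 ± 3.34 (log2, SE; edgeR adjusted p = 0.477) and Cxcl1 at -5.65 ± 4.36 (log2, SE; edgeR adjusted p = 0.477). Without replicate 2 of day 0 KO, the library with 1073 Cxcl1 counts, the Cxcl1 value was 3.19. Ccl4 was at -2.29 without replicate 1 of day 0 KO and at -6.98 without replicate 3 of day 39 KO. Ccl8 was at 0.58 ± 1.89 and Ccl6 at 1.37 ± 1.69 (log2, SE; edgeR adjusted p = 0.981 and 0.786), ranging from 0.13 to 1.74 and from 1.0 to 2.51 when a library was left out. The highest values were those without replicate 1 of day 0 KO for Ccl8 and without replicate 2 for Ccl6. No member was free of overlap between the days in KO, where 8.07% of tested genes were higher and 3.21% lower without overlap. Epithelial markers summed to between 292 and 1340 CPM in day 0 KO, with 4 to 5 of 12 above the floor, and to between 3840 and 9100 CPM in day 39 KO, with 10 to 11 above it, and these groups did not overlap. Their part was not tested.

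**Figure D4:**
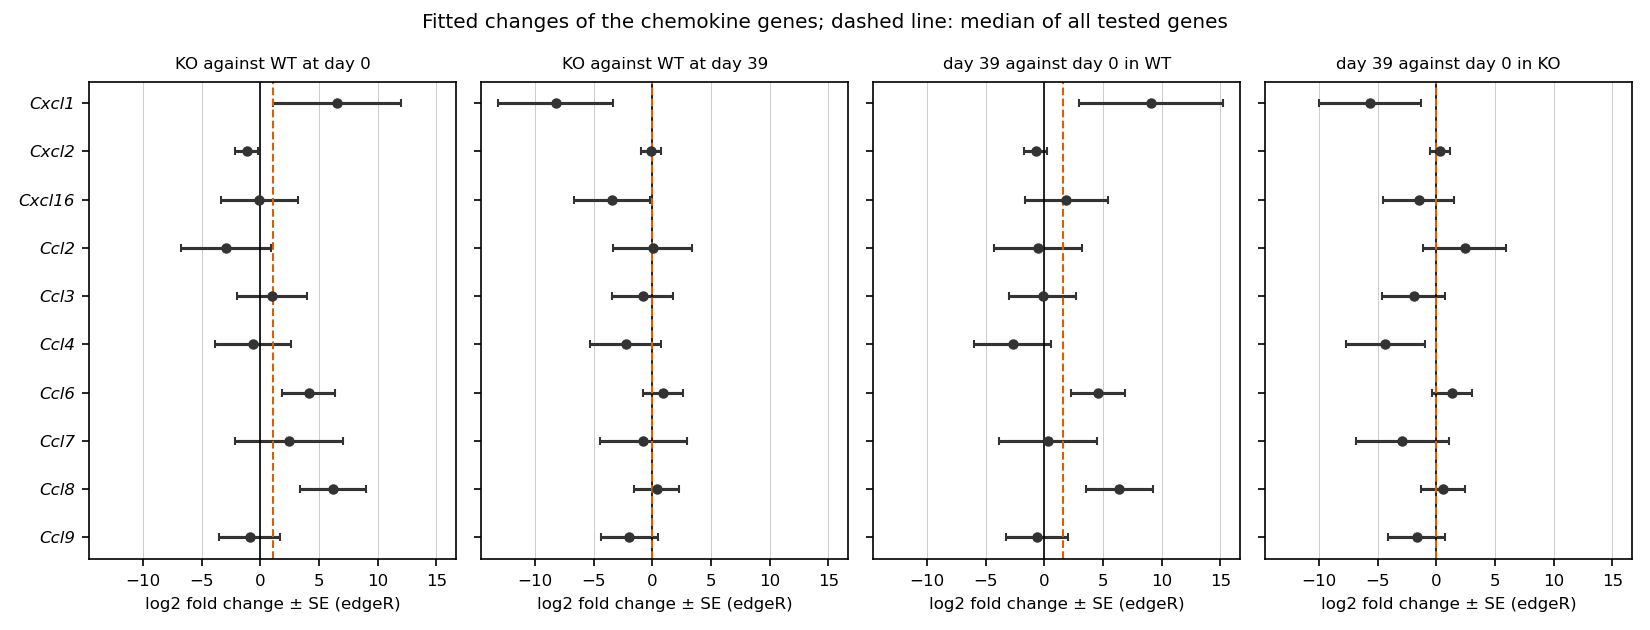
Log2 fold changes of the 10 chemokine genes with SE from the edgeR fit in 4 contrasts, with a dashed line at the median of all tested genes (1.08, 0.0, 1.64 and 0.0 from left to right). SE run from 0.89 for Cxcl2 to 6.14 for Cxcl1, and none of the 40 values passed an adjusted p of 0.05.

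Whether the change over time differed between the genotype labels was tested by the interaction. edgeR called 0 of 10 members (0.0% of tested genes, 0 of 6987), and 0 members had an unadjusted p under 0.05 (14.4% of tested genes). Cxcl1 had the smallest p of the members, with a log2 difference of -14.77 ± 7.79 (SE, unadjusted p = 0.0578, edgeR adjusted p = 0.362), or -13.08 relative to the median of all tested genes. That median, -1.69, was -0.75 under upper-quartile scaling and ranged from -5.75 without replicate 1 of day 0 WT to -0.43 without replicate 3 of day 0 KO. Without replicate 2 of day 0 KO the Cxcl1 difference was -5.85. DESeq2 called Cxcl1 (DESeq2 adjusted p = 0.00185) among 21.4% of its genes, and the edgeR adjusted p was between 0.354 and 0.831 in 6 other settings and between 0.343 and 0.921 when a library was left out. For Ccl8 the difference was -5.83 ± 3.17 (log2, SE; edgeR adjusted p = 0.377), and -9.33 without replicate 1 of day 0 WT.

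Averaged over the genotype labels, day 39 against day 0 gave 0 of 10 members called by edgeR (0.301% of tested genes) and 0 by DESeq2 (26.4% of its genes). The 2 members with an unadjusted p under 0.05 (19.2% of tested genes) were again Ccl8, at 3.50 ± 1.64, and Ccl6, at 2.97 ± 1.4 (log2, SE; edgeR adjusted p = 0.227 and 0.229). Ccl6 was at 5.4 without replicate 2 of day 0 WT and at 1.84 under upper-quartile scaling. No member separated the 6 day 39 libraries from the 5 day 0 libraries, where 1.6% of tested genes were higher and 0.157% lower at day 39 without overlap. Cxcl2 was at -0.20 ± 0.66 (log2, SE; edgeR adjusted p = 0.974), the smallest SE among the members.

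Across the 11 libraries, Spearman correlations of CPM over the 45 pairs of members had a median of 0.0, from -0.64 for Ccl4 and Ccl6 to 0.74 for Cxcl2 and Ccl3, and 22 of 45 were above 0. Ccl2 and Ccl3 had a correlation of 0.64. The coefficient of variation between libraries was estimated with edgeR, which draws it toward that of genes of like abundance. It was 1.47 for Cxcl2, 1.67 for Ccl6, 1.73 for Ccl8, 2.56 for Cxcl1 and 2.74 for Ccl7, with a median of 2.78 over all tested genes. Among genes of similar mean CPM, 40.5%, 40.7%, 36.5%, 45.5% and 49.8% had a lower value, in the same order. These members were thus near the middle for their level. Among 2422 genes above the floor in at least 6 libraries, those ranked most like Cxcl1 over the 11 libraries were AI837181 (rho 0.916), Myl9 (rho 0.887), a smooth muscle myosin light chain, and Slc15a3 (rho 0.862), a peptide transporter of lysosomes. The closest gene to Cxcl2 was Ost4 (rho 0.873), to Cxcl16 Smim14 (rho 0.826), to Ccl2 Tubb6 (rho 0.938) and to Ccl4 Cdc42 (rho 0.855). Efhd2 (rho 0.882) was among the genes most like Ccl3, and another gene was at least as alike. Ccl6 was closest to Klf5 (rho 0.955), Ccl7 to Fnip1 (rho 0.837), Ccl8 to Selenbp2 (rho 0.94) and Ccl9 to Arpc3 (rho 0.891). These points share depth and library composition and are the best of many genes. Cxcl1 was at or under the floor in 5 of the 11 libraries, so part of its ranking rests on counts at or under the floor.

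Of 27 other chemokine ligands, 11 were at or under the floor in every library, among them Ccl5, Ccl11, Ccl20 and Cxcl5, and 2 were above it in at least 6 libraries. None of the 9 tested passed in any of the 6 contrasts by edgeR. Pf4, a chemokine of platelets and macrophages, had 3 counts in replicate 1 of day 39 KO and 1226 to 8282 in the other 10 libraries. Ccl27a had from 0 to 7249 counts and was above the floor in 9 libraries. Cxcl10, an interferon-induced attractant of T cells, and Cxcl13, an attractant of B cells, were above the floor in 4 libraries each, with at most 1637 and 1029 counts.

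Of 23 chemokine receptors, 11 were at or under the floor in every library, including Ccr3, Ccr7, Cxcr3 and Cxcr6, and none of the 7 tested passed in any contrast by edgeR. Cx3cr1, the fractalkine receptor of resident gut macrophages, was above the floor in all 11 libraries, with 14 counts in replicate 1 of day 39 WT and 1646 to 6857 elsewhere. Ccr2, which marks incoming monocytes, was above the floor in 9 libraries, at most 2625 counts. Ccrl2, a non-signalling chemerin receptor, had from 2 to 3838 counts. Cxcr2, through which Cxcl1 and Cxcl2 act on neutrophils, had at most 9 counts in a library.

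Of 27 inducers, regulators and processing enzymes of chemokines, 19 were tested and 1 passed in 1 contrast. Nfkbiz, an inducible nuclear cofactor of NF-kB, rose in KO from 95, 0 and 40 counts at day 0 to 4139, 1377 and 8785 at day 39 (log2 fold change 7.76 ± 1.88 SE, edgeR adjusted p = 0.0267). Its direction held in every alternative run, but it did not pass in 5 of 8 other settings, chosen for this gene after seeing the data (adjusted p between 0.0058 with DESeq2 and 0.341 without the filter on low counts). It also did not pass when 7 of the 11 libraries were left out in turn, namely replicates 2 and 3 of day 0 KO, both of day 0 WT, replicates 1 and 3 of day 39 KO and replicate 3 of day 39 WT (edgeR adjusted p between 0.00629 and 0.46 over all 11). Epithelial markers summed to at most 1340 CPM in day 0 KO and at least 3840 CPM in day 39 KO, and their part was not tested. Nfkbiz had 5419 and 3614 counts in day 0 WT and 2291, 1369 and 5072 in day 39 WT. Il1b, which encodes interleukin-1 beta, never fell under 2184 counts, and its log2 fold change at day 39 was 1.51 ± 0.59 averaged over the labels (SE, edgeR adjusted p = 0.192). Nfkbia, the NF-kB inhibitor whose promoter also holds the exact letters, had 2133 to 20653 counts. Between the labels at day 39 it had a log2 fold of -0.54 ± 0.82 (SE, edgeR adjusted p = 0.929). Socs3, a feedback inhibitor of cytokine signalling, had 623 to 13730 counts.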

How the data were processed

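Per the labels' protocols, Trizol was used for RNA and the Lexogen QuantSeq kit for the libraries, a kit that reads the 3′ end of transcripts. The submitters' processing notes name Bowtie2, edgeR and the human build hg19, with no versions or roles, although the symbols are mouse symbols. The counter, annotation, strand setting and any molecular identifiers are not given in the sources used here. The authors deposited whole-number counts per gene symbol, 1 file per library. File names give day 35 and number 3 where some titles give day 39 and number 2, and the titles were used.

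The test on counts was that of edgeR 4.0.16 under R 4.3.3 (filterByExpr, TMM, robust quasi-likelihood fit, 1 coefficient per group, all 11 libraries, 6 contrasts, two-sided, Benjamini-Hochberg over 6987 genes, threshold 0.05). SE is the log2 fold change over the square root of F. DESeq2 1.42.0 was an alternative, as were other scalings, filters, a replicate block and leaving out each library. The procedure was run on simulated counts with a much smaller spread than these data. That run therefore cannot show how the test behaves at the spread found here. Members and gene lists were chosen with earlier results of these data known. Named genes are the members, in each other list the 4 genes with the highest mean CPM and any that passed, Ptger4, and the genes ranked most like a member. A gene that this rule names is not reported here. Other genes were named after their values were seen. The NF-kB consensus was searched on both strands, overlaps included. RefSeq tables (GRCm38.p6) and GENCODE M21 gave promoters, neighbours and overlaps.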

Additional observations from a re-analysis of the deposited data

How the results depend on the processing

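Of 458 member values under settings other than leaving out a library (10 members, 6 contrasts), 437 kept their direction and side of the threshold, 16 changed sign and 5 passed it, all 5 with DESeq2. Of 660 values with a library left out, 613 kept both and 47 changed sign. DESeq2 called 1, 1, 2 and 1 members in KO against WT at day 0, at day 39, over time in WT and in the interaction, while edgeR called 0 members in every setting. The cause of these differences was not tested.

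Sign changes of Cxcl1, Cxcl2 and Cxcl16 included the following. Under upper quartile Cxcl16 over time in WT was -0.47 in place of 1.88, and Cxcl2 over time in KO was -0.03 in place of 0.32. When a library was left out, Cxcl1 at day 0 ranged from -2.48 to 7.33, Cxcl1 over time in KO from -6.34 to 3.19, and Cxcl2 from -0.59 to 0.61 at day 39, -0.18 to 1.96 over time in KO and -0.56 to 0.62 averaged over the labels.

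Counts of all genes called moved widely. In KO against WT at day 0 (1 gene) the count was 0 without the filter, with the replicate block, with only the groups compared, with library size only or with genes averaging 10 counts or more, and 1399 with DESeq2. At day 39 (2 genes, both lower) it was 0 without the filter, with only the groups compared, with upper quartile or with genes averaging 10 counts or more, 1, higher, with the replicate block and 467 with DESeq2. Over time in WT (1 gene, higher) it was 0 without the filter, with the replicate block, with library size only, with DESeq2 size factors or with genes averaging 10 counts or more, 1, lower, with upper quartile, 2 when fitted on the groups compared alone and 1282 with DESeq2. Over time in KO (11 genes) it was 0 with upper quartile or no filter, 5 with only the groups compared or with genes averaging 10 counts or more and 1165 with DESeq2. The interaction (0 genes) gave 2 with DESeq2 size factors or library size only, 5 with upper quartile and 987 with DESeq2. Averaged over labels (21 genes, 18 higher and 3 lower) it gave 9 with library size only, 51 with upper quartile (2 higher, 49 lower), 2 without the filter, 3 with genes averaging 10 counts or more, 7 with the replicate block and 1219 with DESeq2. Leaving out a library gave 0 to 5, 0 to 2, 0 to 1, 5 to 15, 0 to 8 and 1 to 62 genes in the order above. Scaling moved the median log2 fold change over time in WT from 1.64 to 1.31, 1.42 and 0.48 with the scalings of DESeq2, of library size and of the upper quartile.

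Whether the replicate numbers pair the libraries is not settled by these data, since low correlations at this spread cannot exclude it. The numbers are those of the titles, which in part differ from the file names. The check below and the replicate block rest on them. Deviations from group means of same-numbered libraries correlated between -0.014 and 0.07 over 15 pairs, none above 0.1, and 6 of 11 libraries correlated best with their own number. The replicate block gave 0, 1, 0, 12, 0 and 7 genes and 0 members. With a floor of 10 counts in place of 3, 87 of 110 member values were above it in place of 93. At this spread and number of libraries the lack of a call does not show that a chemokine gene stayed the same.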
